A study of Mus musculus with 14 samples.

Results

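The comparison described here sets FAK KO cells that express active β-catenin, named β-catenin ΔGSK, against the FAK KO cells they were made from, over all genes and in both directions. It used 6 of the 14 RNA sequencing samples of the series, 3 of each line. All lines derive from KMF, a mouse ovarian carcinoma line obtained by passaging ID8 cells in C57Bl6 mice, and all were grown as tumorspheres in anchorage-independent culture for 5 days. FAK KO is the KT13 clone, in which CRISPR guides against exon 4 of Ptk2 removed focal adhesion kinase, so it is 1 clone. β-catenin ΔGSK is the same clone after retroviral transduction with a β-catenin whose GSK3β phosphorylation sites are mutated, followed by drug selection and enrichment by flow cytometry, and it therefore lacks FAK as well. No empty-vector FAK KO line is described, so the effects of the construct cannot be told apart from those of transduction, selection and enrichment. The other 8 samples were parental KMF (n = 3), FAK KO re-expressing GFP-FAK (FAK-WT, n = 3) and FAK KO expressing the kinase-inactive GFP-FAK mutant (FAK-R454, n = 2). They serve below to place levels and for direct comparisons with β-catenin ΔGSK cells. The labels number the samples as replicates, without saying whether they came from separate cultures, and p-values measure the spread between these samples.

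β-Catenin is both a component of cadherin junctions and the transcriptional arm of the Wnt pathway. A complex of Axin, APC, casein kinase and GSK3β phosphorylates the free protein and marks it for degradation, and without those sites it persists, enters the nucleus and works with TCF/LEF factors. Many of the genes it switches on encode inhibitors of the same pathway. In the ovary and its covering mesothelium, the pathway is known for roles in development and in tumors of the ovarian epithelium.

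Each library held between 25390558 and 30107162 fragments on genes. Ptk2, which encodes FAK, was 20.5, 17.6 and 18.9 FPKM (fragments per kilobase of gene, scaled to depth) in the 3 FAK KO samples and 15.4, 15.9 and 15.1 FPKM in the 3 β-catenin ΔGSK samples. The transcript is therefore present in both lines, and these values do not show which alleles it came from. Defining leukocyte and endothelial genes were near 0, with Ptprc at 0, 0.00759 and 0 FPKM and Kdr at 0, 0 and 0.00574 FPKM in the β-catenin ΔGSK samples and both listed at 0 in every FAK KO sample. Over the whole lists, 10 immune markers summed to between 2.89 and 3.21 FPKM in FAK KO and between 1.14 and 1.91 FPKM in β-catenin ΔGSK samples, and 9 endothelial markers to between 20.1 and 22.1 FPKM and between 7.87 and 8.81 FPKM. Of the endothelial markers 3 were tested, and Tek and Pecam1 fell. Wt1 and keratin genes Krt8 and Krt18, marks of the mesothelial and ovarian surface lineage, were high in both lines (Krt8 at 317 ± 26.1 FPKM without and 181 ± 17.8 FPKM with active β-catenin, SD, n = 3 each).

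Expression of active β-catenin went with broad change in both directions. Wnt feedback genes, several Wnt ligands and the insulin-like growth factor binding protein Igfbp5 rose, the last by 11.54 on the log2 scale, and trypsin genes, Spp1, Col15a1 and the mucins Muc5b and Muc5ac fell, with Try5 at least 3559-fold lower. Of 11915 genes tested with limma on log2(FPKM + 0.1), 611 were called higher in β-catenin ΔGSK than FAK KO cells, which is 5.13% of those tested, and 833 were called lower, which is 6.99%. A pseudocount of 1 gave 420 higher and 535 lower genes, and no filter on low values gave 890 and 1400. A call needed a Benjamini-Hochberg adjusted p under 0.05, a log2 fold change of at least 1 in size and a mean above 1 FPKM in the higher line, and "rose" and "fell" are used below for called genes. At any fold, the adjusted p was under 0.05 for 2828 higher genes (23.7%) and 4100 lower genes (34.4%). The 3 samples of one line did not overlap the 3 of the other in 64.2% of all tested genes, and in 1437 of the 1444 called genes. The log2 fold change was 3 or more in 86 of the higher genes and -3 or less in 120 of the lower genes. Of the higher genes 225 had a mean of 1 FPKM or less in FAK KO cells, and of the lower genes 362 had a mean of 1 FPKM or less in β-catenin ΔGSK cells. The median of all tested genes was -0.09. In bulk samples, fewer cells that express a gene and less RNA per cell cannot be told apart.

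**Figure D1:**
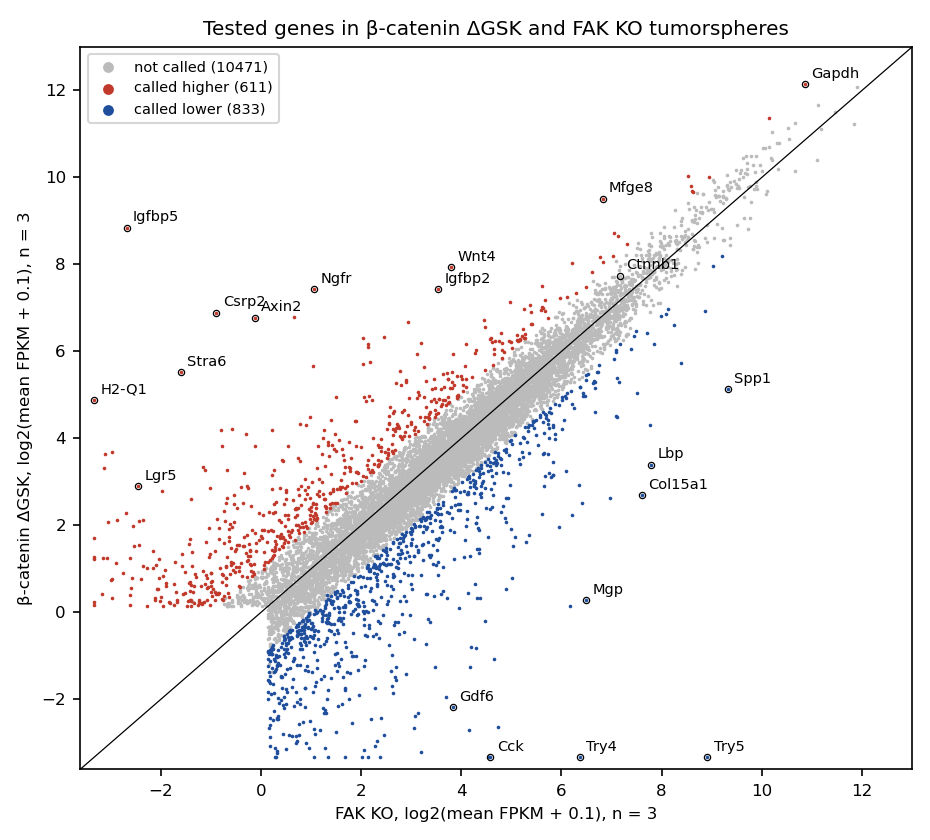
Each point is 1 of 11915 tested genes, placed by the log2 of its mean FPKM plus 0.1 in FAK KO cells (horizontal, n = 3) and in β-catenin ΔGSK cells (vertical, n = 3), with the line of equal level drawn and called genes in red (higher) and blue (lower). Igfbp5 lies farthest above the line at 460.1 FPKM, and Try5 lies farthest below it, at 0 in β-catenin ΔGSK cells.

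The Wnt feedback genes rose furthest as a group. Of 13 listed genes 8 had a mean above 1 FPKM in either line and were tested, 3 of them through β-catenin ΔGSK cells alone. Of the 8, 6 rose and none fell, where 5.13% of all tested genes were called higher and 6.99% lower. Their median log2 fold change was 2.61 against -0.09 for all tested genes. With no filter on level, 12 genes gave a median of 0.95. Ctnnb1 itself (ENSMUSG00000006932, chromosome 9, 120929216 to 120960507 of mm10), which encodes β-catenin, was 148, 139.5 and 146 FPKM in FAK KO samples against 207, 212 and 223 FPKM with active β-catenin. The groups did not overlap, but the log2 fold change was under the threshold at 0.57 (0.06 standard error, limma adjusted p = 6.84e-05), and the level in parental KMF cells was 199.9 ± 6.12 FPKM (SD, n = 3). These values do not separate RNA of the gene itself from RNA of the construct, and need not count all of the latter. Axin2 (ENSMUSG00000000142, chromosome 11, 108920349 to 108950783 of mm10), a scaffold of the destruction complex and a standard readout of β-catenin activity, was 0.819, 0.8102 and 0.839 FPKM in FAK KO samples and 102, 112 and 114 FPKM in β-catenin ΔGSK samples (log2 fold change 6.89 with a standard error of 0.08, limma adjusted p = 1.01e-10). Every β-catenin ΔGSK sample lay over 100 times above every FAK KO sample. Nkd1, an inhibitor that binds Dishevelled, was 0, 0.0178 and 0.0248 FPKM in FAK KO samples against 9.31, 10.7 and 9.69 FPKM with active β-catenin. Rnf43 and Znrf3 encode membrane ubiquitin ligases that remove Frizzled receptors from the cell surface. Rnf43 went from 3.74, 4.51 and 4.68 to 68.8, 71.6 and 75.7 FPKM, a log2 fold change of 4.04, and Znrf3 from 9.67, 9.31 and 9.76 to 22.8, 21.8 and 23.2 FPKM, a log2 fold change of 1.23. These paralogs thus differed in size of response, with no overlap between the lines in either. Notum, a secreted enzyme that strips the lipid from Wnt proteins, went from 0.736, 0.676 and 1.05 to 12.3, 14.7 and 15.6 FPKM. Apcdd1, a membrane Wnt inhibitor, was already at 34.8 ± 1.81 FPKM in FAK KO cells and reached 83.2 ± 1.93 FPKM (SD, n = 3 each), higher by 1.26 on the log2 scale. The remaining tested members, Bambi and Kremen1, were higher at any fold, by 0.53 and 0.38 on the log2 scale. The feedback genes that did not reach a mean of 1 FPKM in either line were Nkd2, Kremen2, Dkk1, Dkk4 and Wif1.

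Among 13 tested of 24 genes in a second list, other known targets of the pathway, 5 rose and 2 fell, with a median of 0.92. Of the 13, 2 were tested through β-catenin ΔGSK cells alone, Tnfrsf19 and Lgr5, so that their direction was set by the filter. With no filter on level, 18 genes gave a median of 0.84. Over all tested genes 5.13% were called higher and 6.99% lower. Tnfrsf19, a receptor of the TNF family also called Troy, went from 0.0143, 0.0331 and 0 FPKM in FAK KO to 13.7, 11.3 and 12.4 FPKM in β-catenin ΔGSK samples. Lgr5, the R-spondin receptor that marks intestinal stem cells, went from 0.104, 0.08001 and 0.0671 to 7.58, 7.07 and 7.66 FPKM (log2 fold change 5.36 with a standard error of 0.15, limma adjusted p = 3.65e-08). Neither gene exceeded 1 FPKM in any sample of the other 4 lines. Id2, an inhibitor of helix-loop-helix factors, rose from 7.35 ± 0.552 to 40.7 ± 3.96 FPKM, the transcription factor Tcf7 from 14.1 ± 1.59 to 39.3 ± 1.61 FPKM, and cyclin D2 (Ccnd2) from 114 ± 2.903 to 266 ± 29.3 FPKM (SD, n = 3 each). Other targets differed less or in the other direction. Myc had a log2 fold change of 0.77, Cd44 of 0.97 and Birc5 of 0.92, each higher at any fold but under the threshold. Cd44 passed it without β-catenin ΔGSK sample 3 (1.08) or FAK KO sample 1 (1.06). Cyclin D1 (Ccnd1) was 78.7, 82.6 and 79.4 FPKM in FAK KO samples against 70.6, 69.5 and 66.5 FPKM with active β-catenin, with a log2 fold change of -0.22, and Sox9 had a log2 fold change of -0.50. Jag1, a Notch ligand, fell from 21.2, 18.7 and 20.9 to 3.54, 3.75 and 3.51 FPKM (log2 fold change -2.46 with a standard error of 0.08, limma adjusted p = 7.7e-08). Tcf7l1, a TCF factor that mostly represses, fell by 1.02 on the log2 scale. It lost its call without β-catenin ΔGSK sample 1 (-0.998) or FAK KO sample 2 (-0.99), with median-of-ratios scaling (-0.94) and with chromosomes centred (-0.91). Of the remaining TCF/LEF genes, Tcf7l2 was not called and Lef1 did not reach 1 FPKM in any of the 6 samples, so Tcf7 was the family member that rose. Sp5, a target with a low level throughout, was 0.0633, 0.0365 and 0 FPKM in FAK KO samples against 0.319, 0.544 and 0.437 FPKM with active β-catenin.

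TCF/LEF factors are known to bind the core letters CTTTGAT or CTTTGAA, and the promoters of risen genes were searched for these letters on both strands. RefSeq promoter sequences of GRCm38.p6 were matched by symbol for 8652 of the tested genes, and the 250 bases before each start site were read. At least 1 of the 2 motifs, which cannot overlap on the same strand, was in 7.48% of all 32851 promoters, in 5.19% of those of tested genes, in 7.32% of the 519 promoters of higher genes and in 5.16% of the 697 of lower genes. With CTTTGAT alone, the share was 3.85% for higher and 2.25% for tested genes. These shares are a description, and a match is not evidence of binding. None of the 4 promoters matched for the risen feedback genes held either motif in this window, which says nothing of their distal elements. Of 32 leading and Wnt-related risen genes, 20 had a promoter entry and 6 of these held a motif. Stra6, Tnfrsf19, Wnt11 and Bcat1 are shown because they are the 4 of these genes that hold CTTTGAT, in capitals below as ATCAAAG, its reverse complement, on the gene's strand. The motif's first base lies 145 bases before the start site in Stra6 (chr9:58129099-58129348, plus strand), 202 in Tnfrsf19 (chr14:61037988-61038237, minus strand), 51 in Wnt11 (chr7:98834862-98835111, plus strand) and 21 in Bcat1 (chr6:145076158-145076407, minus strand).
Stra6: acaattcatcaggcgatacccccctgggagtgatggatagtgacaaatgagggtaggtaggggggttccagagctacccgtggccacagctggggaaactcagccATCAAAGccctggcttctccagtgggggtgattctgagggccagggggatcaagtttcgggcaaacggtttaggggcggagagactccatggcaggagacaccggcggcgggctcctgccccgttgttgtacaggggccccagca
Tnfrsf19: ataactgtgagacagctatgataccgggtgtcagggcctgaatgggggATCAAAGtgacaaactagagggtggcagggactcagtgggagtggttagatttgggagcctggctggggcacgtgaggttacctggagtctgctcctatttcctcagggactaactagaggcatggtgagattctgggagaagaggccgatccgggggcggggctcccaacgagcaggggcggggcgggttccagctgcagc
Wnt11: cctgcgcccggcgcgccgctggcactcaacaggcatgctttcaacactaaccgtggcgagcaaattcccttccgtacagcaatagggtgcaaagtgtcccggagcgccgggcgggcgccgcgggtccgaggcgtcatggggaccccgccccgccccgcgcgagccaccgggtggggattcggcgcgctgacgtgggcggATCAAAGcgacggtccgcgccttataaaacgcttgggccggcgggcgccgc
Bcat1: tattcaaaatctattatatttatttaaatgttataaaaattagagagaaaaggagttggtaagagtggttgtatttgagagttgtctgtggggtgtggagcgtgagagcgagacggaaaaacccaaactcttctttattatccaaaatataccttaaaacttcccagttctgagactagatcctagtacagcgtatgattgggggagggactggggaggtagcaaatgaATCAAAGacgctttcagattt

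Wnt ligands changed in both directions, with 4 of 9 tested genes higher and 2 lower, beside 5.13% and 6.99% of all tested genes. Their median was 0.83, against -0.05 for 17 ligands with no filter on level. Of the 9, 1 passed the filter on level through 1 line only. The lower count became 1 with a pseudocount of 1 or with a mean above 1 FPKM required over all 6 samples. Wnt4 (ENSMUSG00000036856, chromosome 4, 137277489 to 137299726 of mm10), a ligand needed for ovary development, changed most. It was 12.98, 14.2 and 14.2 FPKM in FAK KO samples against 241, 239 and 256 FPKM with active β-catenin (log2 fold change 4.14 with a standard error of 0.06, limma adjusted p = 1.25e-09), and in β-catenin ΔGSK cells it was the Wnt ligand with the highest FPKM. Wnt11, a ligand of β-catenin-independent signalling, went from 6.03, 7.57 and 6.74 to 48.3, 47.3 and 45.4 FPKM. Wnt5a, of the same class, rose from 7.44 ± 0.197 to 19.4 ± 1.01 FPKM and Wnt10a from 14.9 ± 2.05 to 31.3 ± 1.903 FPKM (SD, n = 3 each). The call of Wnt10a was lost without FAK KO sample 1, at a log2 fold change of 0.98. Wnt7b fell from 3.85, 4.195 and 2.96 to 1.11, 1.27 and 0.7298 FPKM and Wnt10b from 1.27, 1.17 and 1.38 to 0.459, 0.407 and 0.504 FPKM, so both ended at low levels. Wnt6 and Wnt5b were higher at any fold, by 0.83 and 0.55, and Wnt2 had a log2 fold change of -0.57.

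Of 11 tested Wnt receptors 1 was called higher, where 5.13% of all tested genes were. At any fold 5 were higher and 2 lower, beside 23.7% and 34.4% of all tested genes. The called gene was Fzd4, a Frizzled receptor. It went from 2.199, 1.68 and 2.36 to 10.4, 9.79 and 9.54 FPKM (log2 fold change 2.21 with a standard error of 0.13, limma adjusted p = 2.07e-06), and the others lay between -0.44 for Fzd1 and 0.94 for Ror1, which passed the threshold with median-of-ratios scaling (1.02) and with chromosomes centred (1.00). The list of destruction complex and Dishevelled genes leaves out Axin2, which is counted above with the feedback genes. Of 14 tested genes of this list none was called with limma, beside 5.13% higher and 6.99% lower of all tested genes. That 0 of 14 is therefore not a result about these genes. At any fold 3 were higher, near the 23.7% of all genes, and 1 was lower, the lowest being casein kinase gene Csnk1a1 at -0.41 and the highest Amer1 at 0.34. Among 18 nuclear partners of β-catenin, the corepressor gene Tle1 rose by 1.15 while Tle2 and Tle6, neighbours on chromosome 10, fell by 1.68 and 2.00 on the log2 scale. Sost, a secreted antagonist of Wnt coreceptors, fell from 2.11, 2.54 and 2.32 to 0.0171, 0.172 and 0.148 FPKM.

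**Figure D2:**
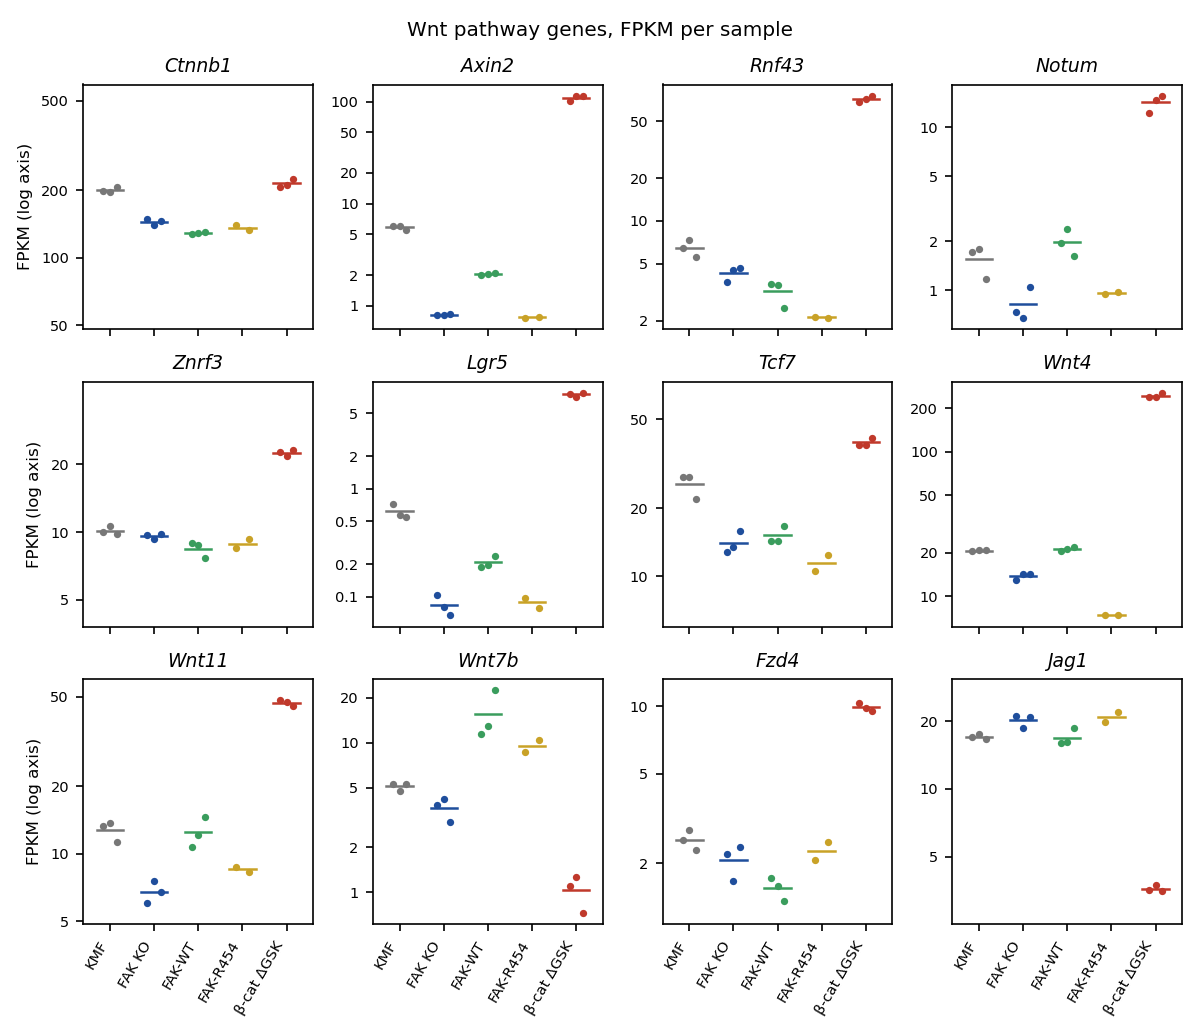
FPKM (log axes) of 12 Wnt pathway genes in every sample of the 5 lines, with 1 point per sample and a bar at the mean. Axin2, Rnf43, Notum, Lgr5, Wnt4, Wnt11 and Fzd4 lay above all other lines in the 3 β-catenin ΔGSK samples, whereas Wnt7b and Jag1 lay below them, and Ctnnb1 in β-catenin ΔGSK cells was near its level in KMF cells.

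Outside the Wnt pathway the largest rise was that of Igfbp5 (ENSMUSG00000026185, chromosome 1, 72857932 to 72874884 of mm10), a secreted protein that binds insulin-like growth factors. It was 0.0885, 0.0319 and 0.0476 FPKM in FAK KO samples and 459, 460.3 and 461 FPKM in β-catenin ΔGSK samples (log2 fold change 11.54 with a standard error of 0.12, limma adjusted p = 1.01e-10). Igfbp2, its neighbour on chromosome 1, went from 9.48, 13.7 and 11.5 to 158, 168 and 194 FPKM, whereas Igfbp7 fell from 88.4 ± 4.62 to 31.5 ± 3.89 FPKM (SD, n = 3 each). The binding proteins thus moved in opposite directions. Within 13 tested genes of the system 2 rose and 2 fell, beside 5.13% and 6.99% of all tested genes. The median was 0.17, or -0.16 over 19 genes with no filter on level. Of the 13, 3 passed that filter through 1 line only. Csrp2, a LIM protein of muscle and other contractile cells, went from 0.376, 0.434 and 0.514 to 119.7, 114 and 122 FPKM. Stra6, the membrane receptor for the retinol-binding protein, went from 0.1403, 0.337 and 0.221 to 40.9, 47.7 and 48.5 FPKM. Ngfr, the low-affinity neurotrophin receptor and a marker of neural crest stem cells, rose from 1.997 ± 0.604 to 173 ± 7.17 FPKM, and Ndrg2 from 1.49 ± 0.2302 to 111 ± 8.89 FPKM (SD, n = 3 each). In Igfbp5, Igfbp2, Csrp2, Stra6, Ngfr and Ndrg2 every β-catenin ΔGSK sample was far above every FAK KO sample. H2-Q1, a class I major histocompatibility gene, was listed at 0 in each FAK KO sample and at 29.04, 28.7 and 30.5 FPKM in β-catenin ΔGSK samples, at least 784-fold higher when 3 fragments per library are taken as the floor. Its neighbour H2-Q4 rose by 3.58, and fragments can be shared between these similar genes, so both values are uncertain. Rtn1, a reticulon of the endoplasmic reticulum, was likewise at least 107-fold higher. Further genes with a log2 fold change above 4.5 were Kif26b (5.01), a kinesin, Bcat1 (4.97), which breaks down branched-chain amino acids, Sntb1 (4.79), Calcrl (4.76), a receptor for calcitonin-related peptides, and Akr1c18 (4.64), which inactivates progesterone. Gng11 and Chst13 are among the leading genes too, but held at most 3 fragments over the FAK KO samples, so no fold is given. Gng11, a G protein subunit, was 13.1, 14.1 and 11.4 FPKM and the sulfotransferase Chst13 was 3.76, 3.67 and 4.88 FPKM in β-catenin ΔGSK samples. Gm11670 is an antisense transcript, and as the library did not mark strand, its reads could be those of the gene on the other strand. The 10 largest rises in FPKM included Mfge8, a secreted bridge between dying cells and phagocytes, from 113 ± 9.48 to 729.8 ± 86.6 FPKM, and the galectin Lgals1, from 1135 ± 90.2 to 2652 ± 251 FPKM (SD, n = 3 each).

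The largest falls were of genes that FAK KO cells expressed and that were not detected in β-catenin ΔGSK cells. Try5 (ENSMUSG00000036938, chromosome 6, 41311233 to 41316841 of mm10), a trypsin, was 442, 538 and 467 FPKM in FAK KO samples and 0 in all 3 β-catenin ΔGSK samples, at least 3559-fold lower with a floor of 3 fragments per library. Try4, beside it, was 76.3, 87.2 and 83.7 FPKM in FAK KO samples and at least 608-fold lower. The trypsin genes are near-identical copies, and the split of fragments between them is uncertain. Serpina6, which encodes corticosteroid-binding globulin, was 29.9, 20.2 and 20.1 FPKM in FAK KO samples and at least 346-fold lower. Cck, the hormone cholecystokinin, was 23.95, 26.4 and 21.3 FPKM in FAK KO samples and at least 151-fold lower. For Fabp4, a fatty acid carrier, the bound was 29.9-fold. Levels of these genes differed among the other lines. Try5 was 4.94 ± 0.438 FPKM (SD, n = 3) in FAK-WT cells, 135 ± 4.09 FPKM (SD, n = 2) in FAK-R454 cells and 1.02 ± 0.294 FPKM (SD, n = 3) in KMF cells, so the 2 FAK-R454 samples lay nearest to the FAK KO samples. Cd36, a fatty acid and thrombospondin receptor, fell from 21.9, 15.2 and 16.3 to 0.0593, 0.0442 and 0.0572 FPKM and was 0.126 ± 0.0984 FPKM in KMF cells (SD, n = 3). Mgp, an inhibitor of calcification that also binds bone morphogenetic proteins, fell from 97.4, 89.5 and 82.5 to 1.002, 1.12 and 1.25 FPKM (log2 fold change -6.20 with a standard error of 0.10, limma adjusted p = 1.32e-09). It was above 80 FPKM in the means of all other lines. Sftpc, a lung surfactant gene, fell by 6.10, Fmo1, a flavin monooxygenase, by 5.75, Rufy4 by 5.71, the aldehyde dehydrogenase Aldh3b2 by 5.64 and the steroid hydroxylase Cyp17a1 by 5.44 on the log2 scale. Penk, the enkephalin precursor, was 10.1, 9.03 and 8.26 FPKM in FAK KO samples and held at most 3 fragments over the β-catenin ΔGSK samples. Speer4a, Prl2c2 and Prl2c3 also fell, but each has close copies in the genome. In FPKM the 10 largest falls were those of Try5, of Spp1, Col15a1, Gsto1 and mt-Nd6, which are described below, of the mucins Muc5b (335 ± 20.8 to 53.1 ± 11.3 FPKM) and Muc5ac (217 ± 18.8 to 19.7 ± 2.64 FPKM), of the lipopolysaccharide-binding protein Lbp (222 ± 13.9 to 10.5 ± 1.33 FPKM), of Maged2 (303 ± 11.9 to 97.3 ± 10.7 FPKM, SD, n = 3 each) and of the galectin Lgals7. Lgals7 (-1.06) lost its call without β-catenin ΔGSK sample 1, at -0.97.

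Genes of the bone morphogenetic protein (BMP) and TGF-β families, secreted factors that act through SMAD proteins, changed in a mixed pattern. Of 32 tested 8 were higher and 10 lower, beside 5.13% and 6.99% of all tested genes. The median was -0.28, or -0.21 over 38 genes with no filter on level, and 4 of the 32 passed that filter through 1 line only. The ligands differed in direction. Bmp6 went from 0.413, 0.621 and 0.385 to 17.5, 17.03 and 20.1 FPKM (log2 fold change 5.02 with a standard error of 0.16, limma adjusted p = 6.59e-08). Bmp7 rose by 4.63 and Bmp2 by 1.76. Gdf6, a ligand of the same family, went from 12.5, 15.5 and 14.5 to 0.1297, 0.156 and 0.07697 FPKM, and Bmp8a fell by 1.49 on the log2 scale. Bmp6 and Gdf6 were each tested through 1 line only, so their direction was set by the filter. Among Id and SMAD genes of the list, Smad7 and Id1 were not called, and those that rose were Smad9 (3.86), which encodes SMAD8, Id3 from 51.2 ± 1.73 to 146 ± 2.04 FPKM, Id2, and the inhibitory SMAD gene Smad6 from 8.75 ± 1.09 to 33.2 ± 1.302 FPKM (SD, n = 3 each). Follistatin (Fst), which traps activins, went from 1.58, 1.67 and 2.03 to 23.01, 20.9 and 15.4 FPKM. Among the genes that fell were the activin subunits Inhba (-2.33) and Inhbb (-2.23), both TGF-β receptor genes Tgfbr1 (-1.50) and Tgfbr2 (-1.19), and the BMP binders Chrd (-1.97) and Bmper (-1.66). Tgfbr2 was 81.1, 84.2 and 83.3 FPKM in FAK KO samples against 36.2, 36.3 and 36.1 FPKM with active β-catenin, with no overlap.

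Notch genes were mixed too, with 2 higher and 3 lower of 13 and a median of -0.68, where 5.13% of all tested genes were called higher and 6.99% lower. The ligand genes Dll1 (2.25) and Jag2 (2.12) rose and Jag1 fell, as did the target gene Hes1, from 56.4, 47.99 and 55.7 to 13.3, 12.02 and 11.7 FPKM, and Dtx1, a ubiquitin ligase of the pathway, from 44.95, 52.8 and 55.4 to 7.64, 8.92 and 9.52 FPKM. Of 26 tested ligands and receptors of the FGF, EGF, PDGF and VEGF families 4 rose and 6 fell, and 3 were tested through 1 line only. VEGF receptor genes Flt4 (1.79) and Flt1 (1.26) were among those that rose, and the receptor genes Pdgfra (-1.77) and Erbb2 (-1.28) and the growth factor Fgf1 (-2.87) among those that fell. In 44 tested axon guidance genes 6 rose and 7 fell, again beside 5.13% and 6.99% of all genes, with Robo3 highest (2.70) and Sema3g lowest (-5.26). Of the 44, 6 were tested through 1 line only.

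Extracellular matrix genes included many that fell. Among all tested genes 6.99% were called lower, 5.13% were called higher and 34.4% were lower at any fold. Of 17 tested collagen genes 6 fell and 2 rose (median -0.65) and 11 were lower at any fold, but 7 of the 17 passed the filter on level through 1 line only, and the median of 34 unfiltered genes was -0.32. Of 22 other matrix genes 7 fell and 2 rose (median -0.51, or -0.17 over 41 unfiltered genes) and 14 were lower at any fold. Through 1 line only, 2 of the 22 were tested. Of 27 matrix proteases and their inhibitors 10 fell and 5 rose (median -0.70, or -0.56 over 39 unfiltered genes) and 17 were lower at any fold. Here 5 of the 27 were tested through 1 line only. Spp1 (ENSMUSG00000029304, chromosome 5, 104435118 to 104441050 of mm10), or osteopontin, a secreted integrin ligand, went from 746, 608 and 570.1 to 35.2, 37.97 and 32.3 FPKM (log2 fold change -4.18 with a standard error of 0.11, limma adjusted p = 1.88e-08). Col15a1, a basement membrane collagen, went from 188, 206 and 191 to 6.47, 8.18 and 4.54 FPKM. Bgn, the proteoglycan biglycan, went from 53.2, 44.8 and 49.1 to 4.73, 4.83 and 4.45 FPKM. In these 3 genes the FAK KO samples were each at least 9 times as high as any β-catenin ΔGSK sample. The fibrillar collagen genes Col3a1 (-4.28), Col5a1 (-4.18) and Col1a1 (-2.28) and Col6a3 (-3.76) fell from means between 1.33 and 7.32 FPKM to means under 0.3 FPKM. Against this, Col12a1 went from 0.107, 0.0999 and 0.0807 to 4.41, 4.82 and 3.65 FPKM and elastin (Eln) rose by 2.31. Mmp13, a collagenase, fell by 3.37, Adamts9 by 2.71 and Mmp15, a membrane-bound protease, by 2.38 on the log2 scale. The membrane-bound proteases Mmp17 (2.15) and Mmp24 (1.97), the tissue inhibitor Timp3 (1.52) and the plasminogen activator Plat (1.26) rose. All 4 tested markers of a fibroblast list fell, Col3a1, Col1a1, Pdgfra and Dcn, but 3 of them were tested through FAK KO cells alone, so that their direction was set by the filter. Dcn was 122, 89.2 and 85.9 FPKM in FAK KO samples against 44.1, 42.1 and 29.8 FPKM with active β-catenin. The list's Dpt, Lum, Pdgfrb, Thy1 and Col1a2 did not reach a mean of 1 FPKM in either line. The 9 markers summed to between 96.9 and 136 FPKM in FAK KO and between 31.1 and 45.4 FPKM in β-catenin ΔGSK samples. The part of any fibroblast-like cells in the lower matrix genes was not tested.

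Integrins and focal adhesion genes, the partners of FAK, held 5 lower and no higher genes among 26 tested, with a median of -0.16. For all tested genes the called shares were 6.99% lower and 5.13% higher. At any fold 10 were lower, a share near the 34.4% of all tested genes, and 2 were higher. Itga7, a laminin receptor subunit, went from 4.65, 5.39 and 4.18 to 0.211, 0.186 and 0.203 FPKM and Tns1, an actin-binding adaptor of focal adhesions, from 58.02, 65.2 and 61.6 to 3.72, 4.11 and 3.56 FPKM. Itgb8 fell by 1.75 and Nedd9, an adaptor that binds FAK, by 1.32 on the log2 scale. Among 11 tested cadherin, catenin and desmosome genes, the desmosomal plakophilin Pkp1 fell from 16.2, 15.6 and 14.3 to 1.03, 1.19 and 0.713 FPKM and Pkp4 rose by 1.17. Snai1, a repressor of epithelial genes, fell from 6.15, 7.57 and 6.61 to 1.52, 1.798 and 1.34 FPKM. The related Snai2 rose by 1.2, a call lost without FAK KO sample 2 at 0.97 and with a pseudocount of 1. Of 20 tested YAP and TAZ genes 8 were higher and 5 lower at any fold, beside 23.7% and 34.4% of all tested genes. With limma none was called higher and 2 fell, near the 5.13% and 6.99% of all tested genes. Those that fell were Ctgf (-1.19) and the kinase gene Nuak2 (-1.34).

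**Figure D3:**
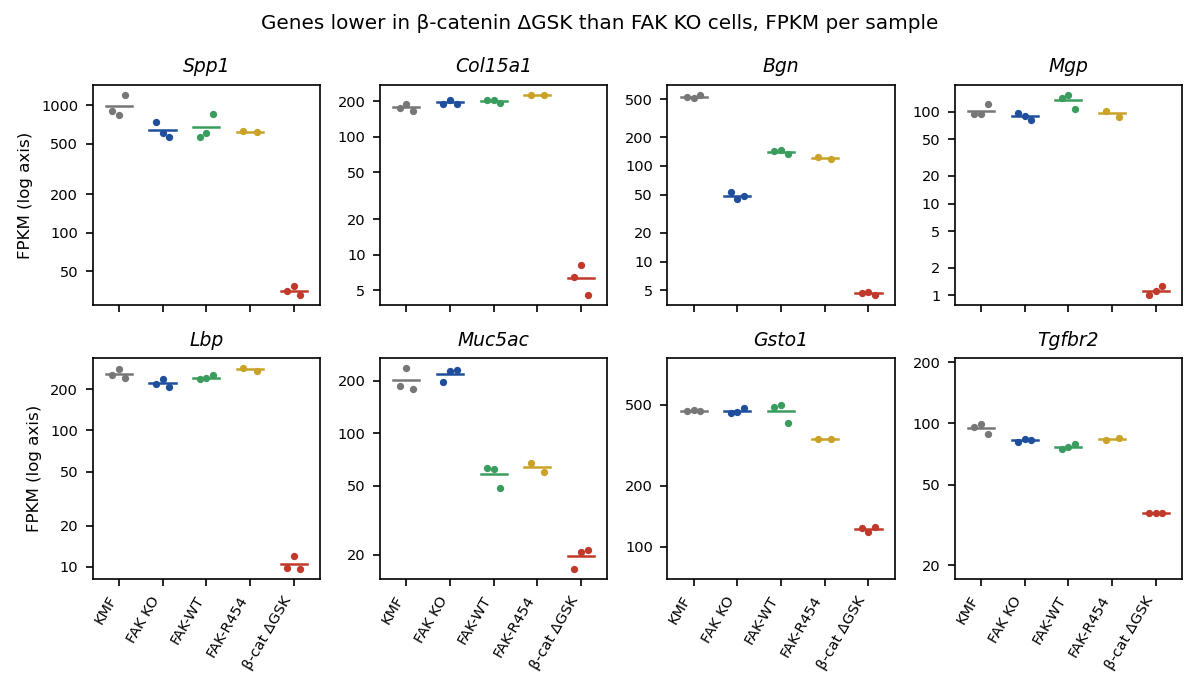
FPKM (log axes) per sample of 8 genes that fell in β-catenin ΔGSK cells, with 1 point per sample of the 5 lines and a bar at the mean. The 3 β-catenin ΔGSK samples lay below every sample of the other 4 lines in each gene, and Muc5ac and Bgn also differed among those lines.

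Genes of mitosis were higher, by less than the genes above. All 36 listed genes of mitosis were tested and all were higher at any fold, where 23.7% of all tested genes were. Their log2 fold changes ran from 0.50 to 1.71, with a median of 0.83. Of the 36 genes, 8 passed the fold threshold, where 5.13% of all tested genes were called higher, and 14 did with median-of-ratios scaling. Cdc20, an activator of the anaphase-promoting complex, went from 19.99, 25.8 and 25.9 to 74.1, 76.3 and 83.03 FPKM, Aurkb, a mitotic kinase, from 11.4, 13.2 and 12.3 to 28.3, 29.2 and 30.6 FPKM, and Plk1, another, from 16.3, 15.5 and 17.1 to 36.3, 35.99 and 39.9 FPKM. The groups did not overlap in these 3 genes. Among 37 genes of DNA replication none was called with limma. At any fold 21 were higher and 1 was lower, beside 23.7% and 34.4% of all tested genes, with a median of 0.33. Of 19 tested cyclins and inhibitors of cyclin-dependent kinases 3 rose, beside 5.13% of all tested genes, among them Cdkn2c (1.11). Cdkn1c, the inhibitor p57, was 0.0344, 0 and 0 FPKM in FAK KO samples, at most 3 fragments in all, and 1.26, 1.35 and 1.09 FPKM in β-catenin ΔGSK samples. Bcl2l11, which encodes the proapoptotic protein BIM, rose from 6.93, 6.18 and 6.53 to 19.2, 18.4 and 21.04 FPKM. In 28 genes of ribosome biogenesis none was called with limma, 10 were higher and 1 was lower at any fold, beside 23.7% and 34.4% of all tested genes, and the median was 0.11.

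Of 35 tested genes of glycolysis and the response to low oxygen 12 rose and 1 fell, with a median of 0.82. By comparison, 5.13% of all tested genes were called higher and 6.99% lower. Pfkp, a phosphofructokinase, went from 9.602, 9.97 and 6.26 to 60.4, 67.6 and 55.1 FPKM, and Hk2, a hexokinase, from 11.7, 13.3 and 9.99 to 31.3, 31.6 and 26.8 FPKM. Gapdh, among the most abundant transcripts, went from 1940.1, 2028 and 1595 to 4367, 5175 and 4059 FPKM (log2 fold change 1.29 with a standard error of 0.12, limma adjusted p = 2.76e-05). Pgk1 was 437, 378 and 286 FPKM in FAK KO samples against 1215, 1210.3 and 709.9 FPKM with active β-catenin, so the third sample of each line was the lowest in both. Eno1 and Tpi1 lost their calls without β-catenin ΔGSK sample 2 (0.98 for both) or FAK KO sample 3 (0.97 and 0.98). These genes also varied within FAK-WT cells, where Gapdh was 3297 ± 1609.8 FPKM (SD, n = 3), and for Gapdh the difference between β-catenin ΔGSK and FAK-WT cells did not pass the test (log2 fold change 0.56, adjusted p = 0.134 from limma). Carbonic anhydrase gene Car12 went the other way, from 189, 178 and 178 to 33.6, 35.2 and 29.6 FPKM. Of 44 nuclear genes of oxidative phosphorylation none was called with limma. However, 39 were higher at any fold, beside 23.7% of all tested genes, and the median was 0.44. The 12 tested mitochondrially encoded genes all lay below 0, as given with the chromosomes below. Of 31 tested genes of the ATF4 and unfolded protein response 1 rose, Phgdh (1.60), the entry enzyme of serine synthesis, and 2 fell. These counts are near the 5.13% higher and 6.99% lower of all tested genes and are not a result about the list. At any fold 7 were higher and 16 lower, beside 23.7% and 34.4% of all tested genes, and the median was -0.25.

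Of 35 tested glutathione and antioxidant genes 6 fell, 5 of them glutathione S-transferases, and 1 rose (median -0.04), beside 6.99% lower and 5.13% higher of all tested genes. Gsto1 went from 453, 463 and 483 to 123, 118 and 124 FPKM and Gsta1 from 139, 129 and 143 to 42.7, 46.7 and 36.8 FPKM, though Gsta1 and Gsta2 are close copies whose fragments can be exchanged. Gsta1 was 39.1 ± 1.905 FPKM in FAK-WT (SD, n = 3) and 50.9 ± 1.51 FPKM in KMF cells (SD, n = 3), near its level in β-catenin ΔGSK cells. Aldehyde dehydrogenases, which include enzymes used to mark tumor-initiating cells, included 2 higher and 2 lower genes among 17 tested in the list, which does not hold Aldh3b2 named above. Over all tested genes 5.13% were called higher and 6.99% lower. Aldh1a2 and Aldh1b1 rose by 1.95 and 1.94, from 0.527 and 1.82 to 2.33 and 7.29 FPKM, and Aldh1a7 and Aldh3a1 fell by 3.08 and 1.69 on the log2 scale, from 31.9 and 231 to 3.69 and 72.6 FPKM. Aldh1a2 was tested through β-catenin ΔGSK cells alone, so its direction was set by the filter.

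Of 27 tested members of a list of developmental factors 12 rose and 1 fell, beside 5.13% and 6.99% of all tested genes. Of the 27, 5 passed the filter on level through 1 line only. The median was 0.47, against 0.19 for 50 of the 72 listed genes with no filter on level. Gata3 went from 0.651, 0.763 and 0.644 to 5.72, 5.86 and 5.22 FPKM and Pitx1 from 1.07, 1.86 and 1.81 to 12.6, 12.8 and 9.54 FPKM. Tbx2 rose from 27.1 ± 3.31 to 76.1 ± 1.903 FPKM and Dlx3 from 12.5 ± 1.21 to 36.4 ± 2.91 FPKM (SD, n = 3 each). Mesothelial and ovarian surface genes rose in 5 of 16 tested and fell in 1, beside the same 5.13% and 6.99% of all tested genes. Their median was 0.49, or 0.08 for 26 genes with no filter. Of the 16, 2 passed the filter on level through 1 line only. Wt1, the Wilms tumor factor, went from 96.3, 96.2 and 101 to 215, 230.3 and 235 FPKM and Amhr2, the receptor for anti-Müllerian hormone, from 118, 137 and 143 to 365, 390.4 and 509.9 FPKM. Emx2 and Bnc1, transcription factors of the same tissues, were 2.27, 2.202 and 2.35 and 1.79, 2.02 and 2.15 FPKM in β-catenin ΔGSK samples and under 0.3 FPKM in every FAK KO sample. Both were thus tested through β-catenin ΔGSK cells alone, and their direction was set by the filter. Klf5 rose by 1.79.

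Chemokine and cytokine genes fell in 6 of 15 tested and rose in none of them by limma's call, beside 6.99% lower and 5.13% higher of all tested genes. Of the 15, 2 were tested through FAK KO cells alone, Ccl2 and Cxcr4, so that their direction was set by the filter. At any fold 1 was higher and 12 were lower, beside 23.7% and 34.4% of all tested genes. The median was -0.76, or -0.60 over 37 genes with no filter on level. Cxcl1, which attracts neutrophils, went from 58.6, 57.8 and 53.4 to 8.504, 9.63 and 8.24 FPKM. Ccl2, which attracts monocytes, went from 3.42, 3.25 and 2.61 to 0.225, 0.827 and 0.527 FPKM, and the receptor gene Cxcr4 from 1.49, 1.68 and 1.13 to 0.03904, 0.0436 and 0.0377 FPKM. No sample of one line reached those of the other in these genes. Interferon-stimulated genes showed 2 higher and 2 lower of 24, near the 5.13% and 6.99% of all tested genes, and 8 of the 24 were tested through 1 line only. Of 16 tested genes of class I antigen presentation 3 rose and 1 fell, 6 were higher and 6 lower at any fold, and the median was -0.05. Besides H2-Q1 and H2-Q4, H2-K1 rose, from 14.4, 15.8 and 12.01 to 44.3, 58.1 and 35.6 FPKM. H2-M3 fell by 1.07 on the log2 scale, a call lost without β-catenin ΔGSK sample 1 (-0.997).

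Other lists held few called genes, to be read beside the 5.13% higher and 6.99% lower of all tested genes. Contractile genes had 3 higher and 1 lower of 16, pluripotency genes 3 and 1 of 10, and p53 target and BCL2 family genes 2 and 1 of 22. ERK output genes had 1 higher and 1 lower of 18, and DNA repair genes 1 and 1 of 36. Epithelial junction and keratin genes had none higher and 1 lower of 10, Hox genes none and 1 of 8, and drug transporters none and 2 of 12 by limma. In cholesterol and fatty acid synthesis 2 of 31 were higher and none lower by limma. Some of these calls were lost when 1 sample was left out. Both DNA repair calls were, in different fits, as were the single lower calls in the p53, epithelial and Hox lists. The 2 higher calls of the p53 list, and those of cholesterol and fatty acid synthesis, became 1.

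**Figure D4:**
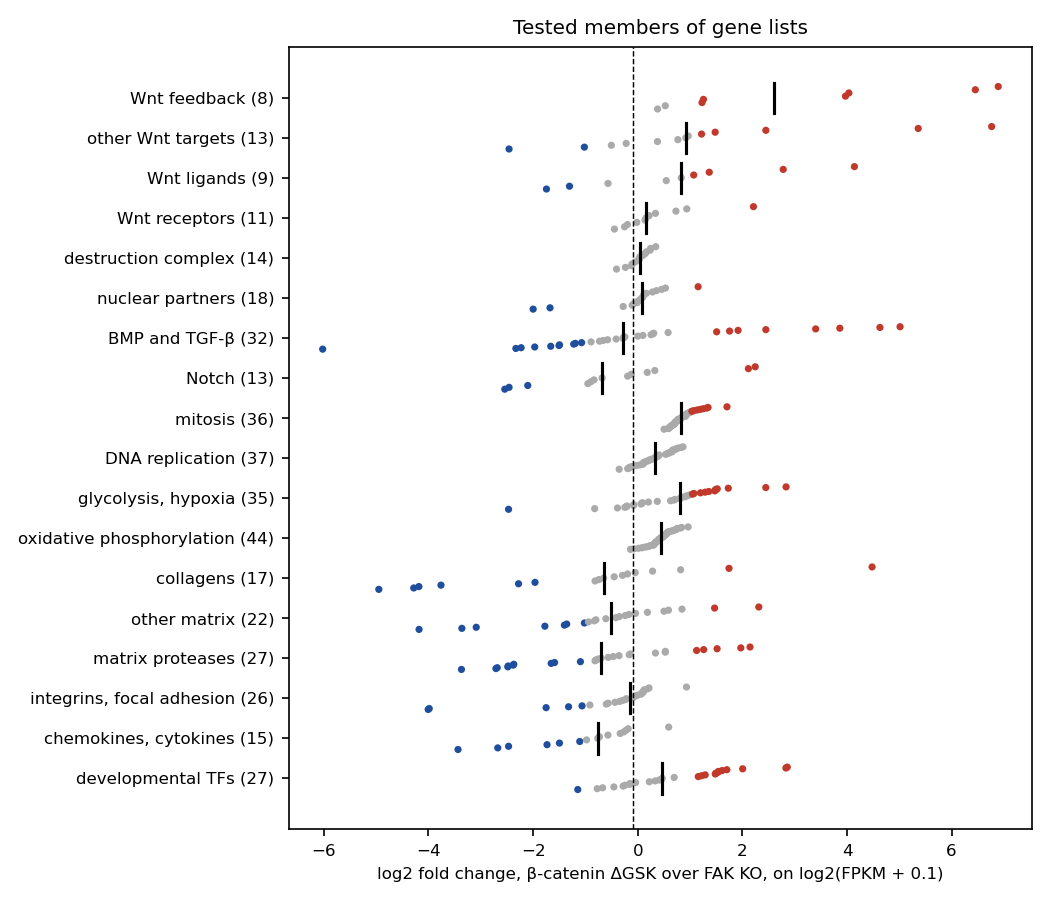
Log2 fold change of β-catenin ΔGSK over FAK KO cells on the log2(FPKM + 0.1) scale for the tested members of 18 gene lists (1 point per gene, number tested in brackets), with called genes in red and blue, the list's median as a black bar and the median of all tested genes (-0.09) as a dashed line. The medians ran from -0.76 for chemokines and cytokines to 2.61 for Wnt feedback genes, with the destruction complex at 0.04.

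Set beside all 5 lines, some genes stood apart in β-catenin ΔGSK cells and others in FAK KO cells. Compared directly, β-catenin ΔGSK cells had 532 genes higher (4.48% of 11873 tested) and 851 lower (7.17%) than FAK-WT cells, 502 higher (4.21% of 11929) and 855 lower (7.17%) than FAK-R454 cells, and 709 higher (5.96% of 11902) and 853 lower (7.17%) than KMF cells. These comparisons share the β-catenin ΔGSK samples with each other and are not independent. Axin2 was higher than in FAK-WT, FAK-R454 and KMF cells by 5.67, 6.97 and 4.20 on the log2 scale, Wnt4 by 3.52, 5.03 and 3.56, and Igfbp5 by 9.32, 11.35 and 10.63. Among the genes that fell, Col15a1 had log2 fold changes of -4.996, -5.17 and -4.81, Lbp of -4.54, -4.74 and -4.62, and Spp1 of -4.24, -4.14 and -4.79 against the same lines. Other genes that were called against FAK KO cells differed less from FAK-WT and KMF cells. Against FAK-WT, FAK-R454 and KMF cells in turn, Jag2 had log2 fold changes of -0.07, 1.38 and -0.71, Klf5 of 0.19, 1.08 and -0.29, and Gsta1 of 0.10, 0.26 and -0.28. For Ctnnb1 they were 0.73, 0.65 and 0.10, so the line with the nearest level was KMF.

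Some chromosomes were shifted as a whole between the lines. The median log2 fold change of 779 tested genes on chromosome 5 lay 0.24 below that of the other chromosomes, and 78.4% of these genes were below 0. In the 3 β-catenin ΔGSK samples the shift was -0.26, -0.24 and -0.23, and over FAK KO cells it was, for FAK-WT, FAK-R454 and KMF in turn, -0.05, -0.14 and -0.14. Chromosome X was lower by a shift of -0.21, with -0.11 in sample 1 and -0.23 in both other samples. On chromosome 18 the shift was -0.30, and FAK-WT (-0.29), FAK-R454 (-0.11) and KMF cells (-0.34) also lay below FAK KO cells there. The 12 tested mitochondrial genes were all below 0, with a shift of -0.60, and here sample 1 (-0.28) stood apart from samples 2 (-0.69) and 3 (-0.79). The other lines also lay below FAK KO cells there, FAK-WT by a shift of -0.30, FAK-R454 of -0.37 and KMF of -0.23. On chromosome X these shifts were -0.10, -0.03 and -0.08. The only called mitochondrial gene, mt-Nd6, was 742, 530.5 and 512 FPKM in FAK KO samples against 355, 278 and 252 FPKM with active β-catenin. Its call was lost without FAK KO sample 1 (-0.83), β-catenin ΔGSK sample 2 (-0.97) or sample 3 (-0.90), and with median-of-ratios scaling (-0.92). With each chromosome centred on its median in each sample, 621 genes were called higher and 818 lower, and mt-Nd6, at -0.11, was no longer called. Whether the shifts go with differences in DNA was not tested.

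**Figure D5:**
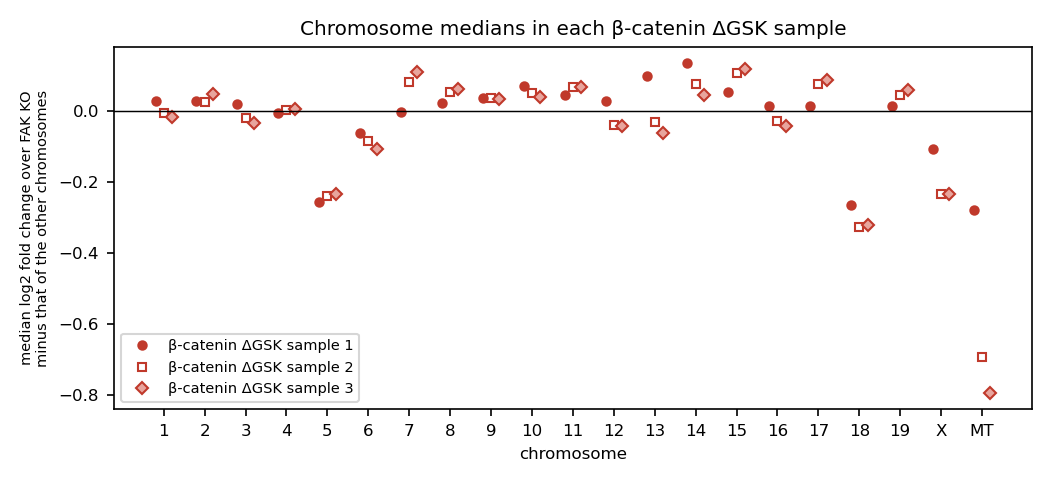
Median log2 fold change over FAK KO cells of the tested genes on each chromosome minus that of the other chromosomes, with 1 symbol for each of the 3 β-catenin ΔGSK samples (MT, mitochondrial genome). Chromosomes 5 and 18 were lower in all 3 samples, by 0.23 to 0.33, and the mitochondrial genes by more in samples 2 and 3 than in sample 1.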

How the data were processed

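RNA of 5-day tumorspheres was sequenced by the provider as poly(A)-selected, paired-end libraries. The authors deposited FPKM per gene for 14 samples in 1 table, and the values were used as deposited. The submitters' processing notes name CASAVA 1.8, STAR 2.5, DESeq2 and the mm10 build, whereas the study's methods name TopHat2, so the aligner is uncertain. Multiplied by gene length, 100% of the deposited FPKM values were whole numbers of fragments (tolerance 0.01), which gave the depth of each library. Floors of 3 fragments cover counting error only. FPKM is per length, so levels can be compared between genes.

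The 3 β-catenin ΔGSK and 3 FAK KO samples, grouped by their labels, were compared with limma 3.58.1 in R 4.3.3 (linear model, empirical Bayes moderation with trend) on log2(FPKM + 0.1), which understates the change of low genes. Genes with a mean above 1 FPKM in at least 1 of the lines were tested. A gene above that level in only 1 line could differ only toward that line, so its direction was set by the filter. Calls needed a Benjamini-Hochberg adjusted p under 0.05 over all 11915 genes and a log2 fold change of at least 1. No exact test of 3 against 3 samples can give a p below 0.1, so single values were not tested alone. On simulated data 30% of genes changed 2-fold and 100% of those changed 2.5-fold or more were called, of 50 genes per fold size among 11650. Named genes were drawn from the 20 called genes with the largest fold change and the 10 with the largest difference in FPKM in each direction, the called members of 47 gene lists and the members of the Wnt lists. Not all of them are named. The members and lists were chosen with earlier results of these data known. Promoter sequences are those of RefSeq for GRCm38.p6, whose coordinates are those of mm10. Alternatives were another pseudocount, filter, scaling, moderation, sample set, threshold and motif, limma-voom on the recovered fragments, centred chromosomes, the replicate number as a block and leaving out each sample. Some items are not reported here.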

Additional observations from a re-analysis of the deposited data

How the results depend on the processing

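The naming rule drew 247 called genes, not all of them named in the text, and none changed direction under any of 16 alternatives. These genes were chosen by their calls and the alternatives reused the same samples, so a change of direction was unlikely from the start. With no fold threshold, 2828 genes were called higher and 4100 lower. With a pseudocount of 1, 420 were called higher and 535 lower, and 39 of these 247 genes lost the call, the most of any setting that kept the fold threshold, and with no filter on low values 890 and 1400. With median-of-ratios scaling the median of all tested genes moved from -0.09 to -0.01, and 690 genes were called higher and 732 lower. limma-voom on recovered fragments called 633 higher and 881 lower. Leaving out 1 sample at a time gave 586 to 649 higher and 806 to 878 lower genes, and 29 of the 247 lost the call in at least 1 of these fits. A fit with the replicate number as block term gave 614 higher and 833 lower genes, among them all 611 and 833 of the fit without it, and none of the 247 lost its call. Deviations of same-numbered samples had correlations of 0.445, 0.280 and 0.076, and not every sample correlated best with its own number (β-catenin ΔGSK sample 3 with FAK KO sample 2, 0.292), so the numbers were not taken as pairs. With CTTTGAT as the only motif, the share of promoters of higher genes was 3.85% in place of 7.32%. The cause of these differences was not tested, beyond fewer or more genes passing each threshold by construction. Levels at or below 3 fragments per library, the floor chosen here, rest on too few fragments for a fold. On simulated data 100% of genes changed 2-fold had an adjusted p under 0.05 but 30% were called, since the fold threshold lies at that size.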
